A study of Mus musculus with 6 samples.

Results

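The interferon gamma and IL-12 axis was followed through 10 genes chosen by symbol: the cytokine Ifng, its receptor chains Ifngr1 and Ifngr2, the kinases Jak1 and Jak2, the IL-12 subunits Il12a and Il12b, the IL-12 receptor chains Il12rb1 and Il12rb2, and the transcription factor Tbx21. All 10 were listed in the deposited table of 17352 mouse genes. The table covers RNA of 6 whole tumours that had grown for 4 weeks under the skin of mice given Panc02 cells, a pancreatic cancer line of mouse origin. In 3 tumours (numbers 3, 4 and 5) the host mice had lost annexin A1, a phospholipid-binding protein, from their myeloid cells (Anxa1ΔMɸ), and in the other 3 (numbers 2, 3 and 5) the hosts were Anxa1 flox/flox mice labelled wild type. The groups are named deficient and wild type below, and values are always in the order of these numbers. The sources used here give neither the Cre line behind the deletion nor the age of the mice, and do not spell out the letters HFD that stand in every label. The implanted Panc02 cells and the hosts' other cells had no labelled deletion.

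Interferon gamma is secreted mainly by T cells and natural killer (NK) cells. It binds a receptor of 2 chains, IFNGR1 and IFNGR2, whose kinases JAK1 and JAK2 start the signal that turns on genes of antigen presentation and of the guanylate-binding proteins. IL-12, a dimer of p35 (Il12a) and p40 (Il12b) made by dendritic cells and macrophages, binds the chains IL-12Rβ1 and IL-12Rβ2 on lymphocytes. It acts through STAT4 and, together with T-bet (Tbx21), drives interferon gamma production.

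The file names no unit, and its values were taken as FPKM, fragments per kilobase of gene, scaled to the mapped fragments of the library. Their steps implied 37500000 to 41100000 fragments per library, and the smallest whole numbers of fragments that give a gene's values could be read back. Anxa1, the targeted gene, measured 249.9, 330.2 and 290.5 FPKM in the deficient tumours and 341.8, 354.4 and 394.2 in the wild-type ones. Every deficient tumour thus lay below every wild-type tumour, with a log2 fold change of -0.33 (SE 0.12, limma adjusted p = 0.268). Keratin genes of the labelled epithelial cancer cells were abundant, with Krt8 at 198 to 266 FPKM, whereas Epcam stood at 1.19 to 5.47 in deficient and 0.0983 to 0.324 in wild-type tumours. Y-linked transcripts separated the same libraries as the genotype (Ddx3y at 0 to 0.126 FPKM in deficient and 3.13 to 6.79 in wild-type tumours), so the source of this split and the genotype cannot be told apart. The labels do not say how the animals were kept or paired, and p-values measure the spread between these 6 tumours.

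Promoters of 9 of the 10 genes were matched by symbol in RefSeq (GRCm38.p6). The 3 shown are those of the lymphocyte genes Ifng, Tbx21 and Il12rb2, which were higher in every deficient tumour than in every wild-type tumour. Each is the 250 bases before the annotated start, 5′ to 3′ on the gene's strand, with matches to the motifs below in capitals. They lie at chr10:118440796-118441045 (+ strand), chr11:97115332-97115581 (- strand) and chr6:67376189-67376438 (- strand).
Ifng: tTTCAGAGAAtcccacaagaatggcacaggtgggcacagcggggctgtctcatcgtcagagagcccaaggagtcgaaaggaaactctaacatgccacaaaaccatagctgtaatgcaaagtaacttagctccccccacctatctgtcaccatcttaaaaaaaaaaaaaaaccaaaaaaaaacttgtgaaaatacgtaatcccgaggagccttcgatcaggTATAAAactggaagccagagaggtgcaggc
Tbx21: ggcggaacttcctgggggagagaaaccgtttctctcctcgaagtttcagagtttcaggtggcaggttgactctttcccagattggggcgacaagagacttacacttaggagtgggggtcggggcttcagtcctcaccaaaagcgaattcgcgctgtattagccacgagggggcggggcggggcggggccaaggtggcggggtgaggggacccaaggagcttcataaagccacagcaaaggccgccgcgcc
Il12rb2: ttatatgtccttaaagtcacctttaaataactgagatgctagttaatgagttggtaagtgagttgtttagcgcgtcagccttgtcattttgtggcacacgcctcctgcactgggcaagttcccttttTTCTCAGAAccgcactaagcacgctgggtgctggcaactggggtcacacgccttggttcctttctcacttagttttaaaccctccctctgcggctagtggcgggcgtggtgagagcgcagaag
The 5 motifs searched on both strands were the STAT-type GAS element TTCNNNGAA, an IRF-type element (GAAA, any 2 bases, GAAA), the T-box element AGGTGTGA, the AP-1 element TGANTCA and the TATA box TATAAA. In Ifng a GAS match lay at bases -249 to -241 and a TATA box at -30 to -25, counted back from -1 at the base before the start. In Il12rb2 a GAS match lay at -123 to -115, and in Tbx21 none of the 5 was found. Over all 32851 promoters of this length, 7.02% held the GAS letters, 2.98% the IRF letters, 1.12% the T-box letters, 6.75% the AP-1 letters and 12.4% the TATA letters. The other promoters of the axis, those of both interferon gamma receptor chains, both kinases, Il12a (2 starts) and Il12b, held none of them.

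Ifng and Il12rb1 rose in the deficient tumours, while the interferon gamma receptor chains, Jak1 and the IL-12 subunits overlapped between the groups. The question addressed was how the axis differed in the tumour when host myeloid cells lacked annexin A1. Of the 10 genes, 8 passed the filter of a mean of at least 0.5 FPKM and were tested with limma on log2(FPKM + 1) among 12257 genes. Of these 8, 2 were higher at a Benjamini-Hochberg adjusted p under 0.05, where 0.979% of all genes tested were, and 0 were lower, where 0.228% were (also 0 at an unadjusted p under 0.05 and 0 with limma-voom). Ifng and Tbx21 passed the filter only through the deficient group, so the count of genes called is no support for a change of the axis as a whole. Groups did not overlap for 5 of the 10 genes (Ifng, Tbx21, Il12rb1, Il12rb2 and Jak2), each higher in deficient tumours. That count includes Il12rb2, which was not tested. Of the 8 tested genes 4 did not overlap, where 20.1% of all genes tested did not, with 11.8% higher and 8.31% lower. Ifng and Tbx21 are among these 4, so this count has the same limit. In whole-tumour RNA, fewer cells of a type and less RNA per cell cannot be told apart.

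Ifng (NCBI gene 15978) measured 1.54, 0.845 and 1.47 FPKM in the deficient tumours and 0.335, 0.149 and 0.0212 in the wild-type ones. These values were 70, 42 and 67 fragments against 16, 7 and 1. The lowest deficient tumour, number 4, was 2.52-fold above the highest wild-type tumour, number 2. Group means were 1.29 ± 0.384 and 0.168 ± 0.158 FPKM (SD, n = 3), a ratio of 7.65 that was 15.1 without wild type 2 and 5.32 without wild type 5. Summed over each group and set to equal depth, the fragments differed 7.53-fold (95% interval 4.90 to 12.1, exact binomial, counting error only). On the log2(FPKM + 1) scale, which understates changes of low genes, the fold change was 0.96 (SE 0.17, limma adjusted p = 0.0466).

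Il12rb1 (NCBI gene 16161), the receptor chain that IL-12 shares with IL-23, measured 3.50, 2.04 and 3.90 FPKM in the deficient tumours. In wild type 2, 3 and 5 it had 1.13, 0.910 and 0.648. The groups did not overlap, deficient 4 was again the lowest of its group, and wild type 5 was again the lowest of all. The means were 3.15 ± 0.981 and 0.895 ± 0.240 FPKM (SD, n = 3), a ratio of 3.51, and the log2 fold change was 1.11 (SE 0.20, limma adjusted p = 0.0480). Both calls stood close to the threshold. For Ifng and for Il12rb1 they were lost without deficient 3 or 5 or without any 1 of wild type 2, 3 and 5 (adjusted p from 0.0574 to 0.198), and with limma-voom on the recovered fragments (0.111 and 0.0776, where 0.742% of genes were called and 0.547% called higher).

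Tbx21 (NCBI gene 57765), which encodes T-bet, measured 1.26, 0.429 and 0.863 FPKM in the deficient tumours. In wild type 2, 3 and 5 it had 0.268, 0.222 and 0.252. The wild-type tumours lay within 1.21-fold of each other and the deficient ones spread over 2.92-fold, with deficient 4 the nearest to wild type. The means were 0.849 ± 0.413 and 0.247 ± 0.0235 FPKM (SD, n = 3), from 248 and 74 fragments. The log2 fold change of 0.54 (SE 0.17) did not pass over all genes (limma adjusted p = 0.204).

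Il12rb2 (NCBI gene 16162), the signalling chain that STAT4 binds, was too low to be tested. Its FPKM was 0.333, 0.211 and 0.201 in the deficient tumours and 0.128, 0.0772 and 0.157 in the wild-type ones. The groups did not overlap, but the lowest deficient tumour was only 1.28-fold above the highest wild-type tumour. From 239 and 118 fragments the ratio at equal depth was 2.04 (95% interval 1.63 to 2.57, counting error only). A two-sided exact permutation test over the 6 tumours gave p = 0.1, the smallest p that 3 against 3 allows. Il12rb1 exceeded Il12rb2 in FPKM in every tumour, by 4.12-fold in wild type 5 to 19.4-fold in deficient 5.

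**Figure D1:**
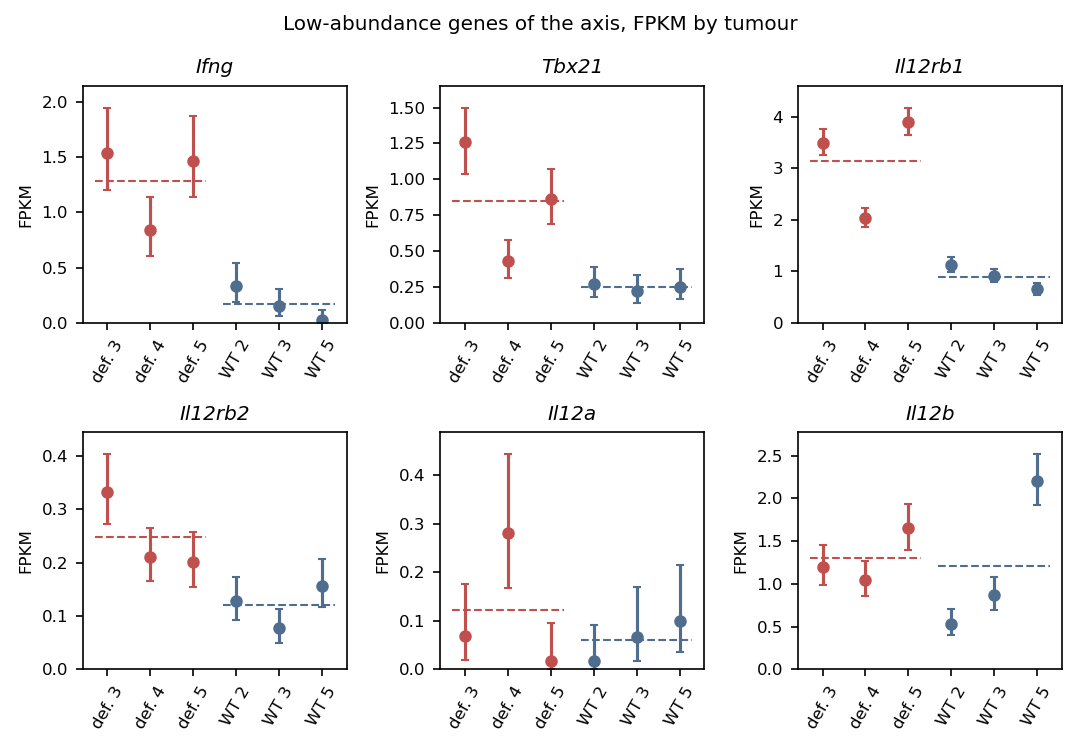
FPKM (vertical axis, from 0) of the 6 low genes of the axis in each tumour (red, deficient 3, 4 and 5; blue, wild type 2, 3 and 5). Bars are exact 95% Poisson intervals of the recovered fragments (counting error only) and dashed lines are group means. The measured values of the groups are apart in Ifng, Tbx21, Il12rb1 and Il12rb2 and overlap in Il12a and Il12b. For Tbx21 and Il12rb2 the bars of the nearest deficient and wild-type tumours overlap.

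The subunits of IL-12 did not follow Ifng. Il12b (NCBI gene 16160) measured 1.20, 1.05 and 1.65 FPKM in the deficient tumours and 0.536, 0.872 and 2.21 in the wild-type ones. Wild type 5, which had a single Ifng fragment, was the tumour with the most Il12b. The wild-type tumours spanned 4.12-fold and the deficient ones lay inside their range. The log2 fold change was 0.13 (SE 0.26, limma adjusted p = 0.871), and it was -0.10 (adjusted p = 0.867) without wild type 2. The ratio of mean FPKM was 1.08 with every library and 1.85 without wild type 5.

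Il12a (NCBI gene 16159), below the filter, was near the limit of detection, with 4, 18 and 1 fragments in the deficient tumours and 1, 4 and 6 in the wild-type ones. Its FPKM lay between 0.0162 and 0.281, and 18 of the 23 deficient fragments came from deficient 4. At equal depth the groups' fragments had a ratio of 2.11, with a 95% interval of 0.989 to 4.80 that includes equality (exact permutation p = 0.6 over the tumours). The ratio of mean FPKM was 2.02 with every library and 0.708 without deficient 4. Il12b exceeded Il12a in every tumour, from 3.73-fold in deficient 4 to 97.1-fold in deficient 5. The partner with which p40 forms IL-23, Il23a, was listed at 0 in deficient 3, wild type 2 and wild type 5 and reached at most 0.0896 FPKM, in deficient 4.

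The receptor and its kinases were expressed at far higher levels than the cytokine. Ifngr1 (NCBI gene 15979), the ligand-binding chain, measured 99.2, 87.4 and 175 FPKM in the deficient tumours and 123, 121 and 115 in the wild-type ones. The wild-type tumours agreed within 1.07-fold, whereas deficient 5 lay above and deficient 3 and 4 below all of them. The means were thus alike (120.5 and 119.6 FPKM), with a log2 fold change of -0.06 (SE 0.23, limma adjusted p = 0.935). That sign turned without deficient 3 (0.05) or deficient 4 (0.14).

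Ifngr2 (NCBI gene 15980), the chain that carries JAK2, measured 58.4, 48.9 and 74.0 FPKM in the deficient tumours and 57.7, 51.8 and 46.0 in the wild-type ones. The groups overlapped, and deficient 5 was the highest tumour for this chain too (log2 fold change 0.20, SE 0.16, limma adjusted p = 0.586). The level of Ifngr1 was 1.70-fold to 2.50-fold that of Ifngr2, and the ratio was lowest in deficient 3. Deficient 5 also had the highest summed level of the 11 macrophage and monocyte markers, 6520 FPKM against 3640 to 5560 in the other 5 tumours, and of the 6 neutrophil markers, 332 against 151 to 266. The part of these cells in the receptor values was not tested.

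Jak2 (NCBI gene 16452) measured 16.1, 17.1 and 17.1 FPKM in the deficient tumours and 13.7, 14.3 and 14.1 in the wild-type ones. The groups did not overlap, by a narrow margin of 1.12-fold, and the spread within each was small (coefficient of variation 3.63% and 2.43%). The log2 fold change of 0.24 (SE 0.08) did not pass over all genes (limma adjusted p = 0.209). Jak1 (NCBI gene 16451), which pairs with the ligand-binding chain and also serves the receptors of type I interferon and IL-6, ranged from 41.4 to 45.2 FPKM in deficient and from 40.4 to 43.2 in wild-type tumours. Its groups overlapped (log2 fold change 0.06, SE 0.08, limma adjusted p = 0.785).

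**Figure D2:**
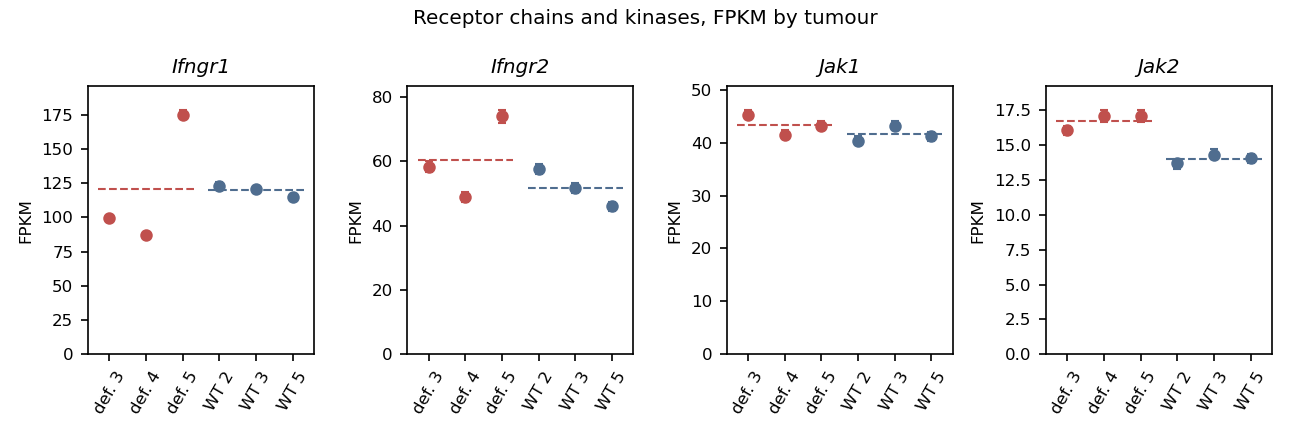
FPKM (vertical axis, from 0) of the interferon gamma receptor chains and of Jak1 and Jak2 in each tumour (red, deficient; blue, wild type), with exact 95% Poisson intervals, mostly smaller than the points, and group means as dashed lines. Deficient 5 stands above the rest in Ifngr1 and Ifngr2, and the groups are apart in Jak2 alone.

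Ordered by FPKM over all 6 tumours, a scale that is per length, the genes ran from Ifngr1 (mean 120) through Ifngr2 (56.1), Jak1 (42.5), Jak2 (15.4), Il12rb1 (2.02), Il12b (1.25), Ifng (0.727), Tbx21 (0.548) and Il12rb2 (0.185) to Il12a (0.0913). The ranges over tumours of neighbours were apart from Ifngr1 down to Il12rb1 and overlapped from Il12rb1 down to Il12a. In wild-type tumours alone the mean of Il12b (1.20) was above that of Il12rb1 (0.895), though their ranges overlapped, and the mean of Tbx21 (0.247) was above that of Ifng (0.168), again with overlap.

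The lists around the axis held 99 genes, of which 85 were tested, and 14 of them rose and 0 fell (limma adjusted p), where 0.979% and 0.228% of all genes tested did. The count was 3 without deficient 3, 26 without deficient 4, 4 without deficient 5, 5 without wild type 2, 2 without wild type 3 and 6 without wild type 5. The calls over all genes, 148 with every library, were 22, 336, 31, 65, 10 and 41 in the same order. With the adipocyte covariate described further on it was 0. Most calls were among the 25 interferon gamma target genes, of which 24 were listed and tested. All 24 had a positive log2 fold change, as had 6706 of all 12257 genes tested. Of the 24, 11 rose, and the median was 1.09 against 0.019 over all genes tested. Ido1, with a wild-type mean of 0.245 FPKM, passed the filter only through the deficient group. The 4 with the smallest p were the immunoproteasome subunits Psmb9 (1.41) and Psmb8 (1.34), the guanylate-binding protein Gbp4 (1.64) and the peptide transporter Tap1 (0.97), on the log2 scale. Groups did not overlap for 23 of the 24, each higher in deficient tumours, where 11.8% of all genes tested were higher without overlap. The exception was Cxcl10, a T cell attracting chemokine, with FPKM of 49.6, 37.0 and 25 in the deficient tumours and of 49.3, 16.5 and 6.93 in the wild-type ones. Being on this list does not tell interferon gamma from type I interferon, and which of them acted was not tested. Members of the guanylate-binding protein family resemble each other in sequence, so their separate values are uncertain.

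Among 15 genes of interferon gamma receptor signalling and feedback 1 rose, Nlrc5, the activator of MHC class I genes, with a log2 fold change of 0.61 (SE 0.10, limma adjusted p = 0.0417). The feedback inhibitor Socs1 stood at 0.80 (adjusted p = 0.0562) and the class II activator Ciita at 1.09 (0.0630). Socs1 measured 9.06, 7.32 and 8.89 FPKM in the deficient tumours and 5.23, 4.64 and 3.43 in the wild-type ones, without overlap. The phosphatases Ptpn1 (0.08), Ptpn2 (0.04) and Ptpn11 (-0.06) and the STAT inhibitor Pias1 (-0.06) overlapped between groups, with adjusted p of 0.743 to 0.893. The phosphatase Ptpn6 did not overlap, at 41, 26 and 43.3 FPKM against 23, 16 and 20.2, and its log2 fold change of 0.84 (SE 0.21) did not pass (limma adjusted p = 0.122). The median of the 15 was 0.51.

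Of 14 tested genes of the IL-12 family and of the cytokines that act beside IL-12, 2 rose. Il2rb, a chain of the receptors for IL-2 and IL-15, stood at 0.98 (SE 0.15, limma adjusted p = 0.0344) and Il18bp, the secreted inhibitor of IL-18, at 0.82 (SE 0.14, adjusted p = 0.0445), on the log2 scale. Il2rg, the common gamma chain, was at 0.82 (adjusted p = 0.0676) and Ebi3, a subunit of IL-27, at 0.64 (adjusted p = 0.185). Il18 itself ranged over 10.2 to 12.3 FPKM in deficient and 9.29 to 13.4 in wild-type tumours. Stat4, the IL-12 signal transducer, had 2.94, 3.16 and 3.58 FPKM in the deficient tumours and 1.43, 2.91 and 2.89 in the wild-type ones (no overlap, log2 fold change 0.34, limma adjusted p = 0.458). The kinase Tyk2, which serves IL-12Rβ1, was at 0.29 (adjusted p = 0.397).

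None of the 15 tested genes of the type 1 lymphocyte programme passed limma over all genes, where 1.21% of all genes did, although groups did not overlap for 9 of them with higher values in deficient tumours, against 11.8% of all genes tested. At an unadjusted p under 0.05 there were 10 higher and 1 lower, where 15.1% of all genes tested passed in either direction. With limma-voom 0 were called. Xcl1, with a wild-type mean of 0.313 FPKM, passed the filter only through the deficient group. The smallest p belonged to the chemokines Xcl1 (log2 fold change 1.15, adjusted p = 0.109), Ccl3 (0.95, 0.135) and Ccl4 (0.96, 0.139) and to Tnf (0.70, 0.115). Xcl1 measured 3.40, 0.940 and 1.90 FPKM in the deficient tumours and 0.244, 0.446 and 0.248 in the wild-type ones. Runx3, a partner of T-bet at the Ifng locus, lay the other way, with 9.25, 10.9 and 7.30 against 12.1, 15 and 11.6 FPKM (log2 fold change -0.46, adjusted p = 0.226). Eomes, the T-box factor related to T-bet, was at 0.41 (adjusted p = 0.271).

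Genes of other T helper programmes had a median log2 fold change of 0.029, with 0 of 8 tested past the limma threshold. There were 0 also with limma-voom and at an unadjusted p under 0.05, where 15.1% of all genes tested passed. The 4 with the smallest p were Il10 (0.38, limma adjusted p = 0.357), Bcl6 (-0.23, 0.431), Maf (0.31, 0.474) and Foxp3 (0.24, 0.533). The cytokines Il4, Il5, Il13 and Il17f were each listed at 0 in at least 1 tumour, and Il17a and Il22 were not found by symbol among the genes listed. Of 9 tested comparison receptors and kinases 0 passed limma, 0 had an unadjusted p under 0.05 and 0 passed limma-voom, with a median of 0.12. Among them the type I interferon receptor chains Ifnar1 and Ifnar2 were both at 0.11 (adjusted p = 0.729 and 0.714). The 4 with the smallest p were Il10ra (0.25, 0.367), Il13ra1 (0.23, 0.369), Csf2rb (0.22, 0.370) and Il10rb (0.28, 0.410).

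**Figure D3:**
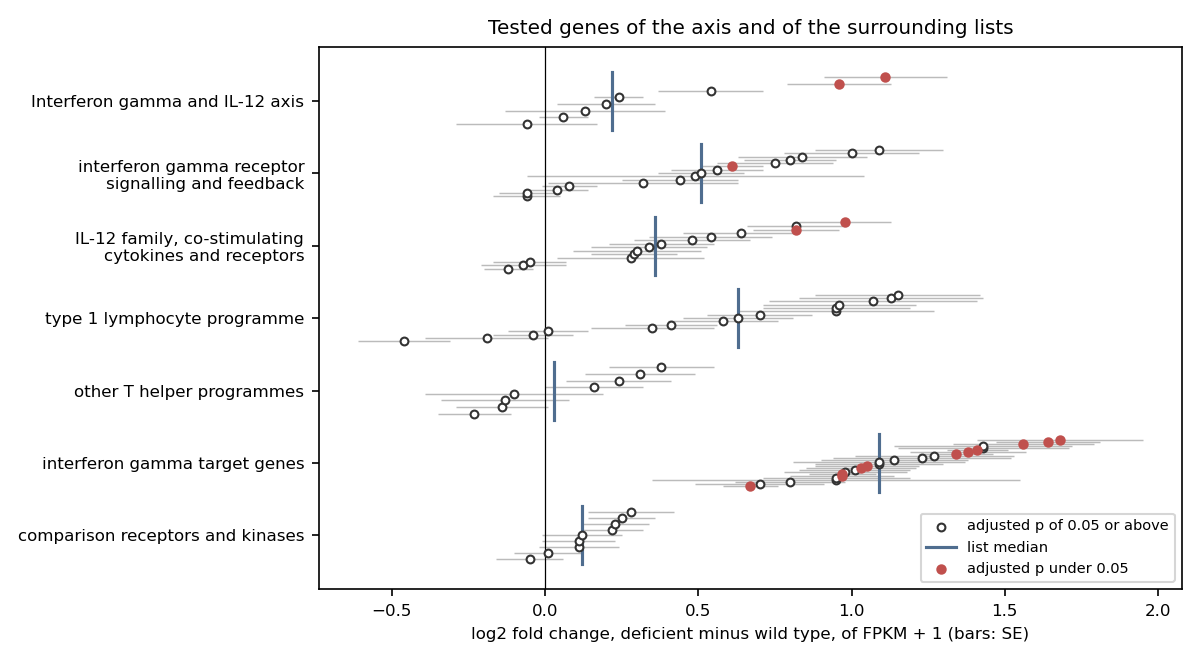
Log2 fold change of FPKM + 1 (horizontal axis, deficient minus wild type, bars SE) of every tested gene of the axis and of the 6 surrounding lists; filled points have a limma adjusted p under 0.05 and vertical bars are list medians. The interferon gamma targets lie at a median of 1.09, the comparison receptors at 0.12 and the other T helper genes at 0.029.

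Markers of the cells that make interferon gamma moved with the groups. The 9 NK cell markers summed to 16.1 to 18.8 FPKM in deficient and 3.69 to 4.56 in wild-type tumours. All 9 had a higher mean in the deficient group, 8 of them without overlap. Only 5 of the 9 passed the filter, all 5 without overlap. Ncr1, Klrb1c, Klre1 and Klra8 did not pass it, so the sum comes mostly from Klrd1, Klrk1, Klrc1, Gzma and Prf1. The part of CD8 T cells in the values of these genes was not tested. For these and the counts below, 11.8% of all genes tested were higher without overlap, and 6706 of all 12257 had a positive log2 fold change. Klrd1 gave the most to the sum, with 5.09 to 6.38 FPKM in deficient and 0.797 to 1.37 in wild-type tumours. The defining receptor Ncr1 was at 0.116 to 0.598 FPKM in deficient tumours and at 0 in wild type 3, and Klra8 was listed at 0 in all 3 wild-type tumours. The 10 T cell markers summed to 81.7 to 114 against 45.2 to 74.8 FPKM, 9 of 10 with a higher mean and 6 without overlap. Cd4 was the exception in mean, at 4.13 to 6.60 against 4.61 to 6.98 FPKM. The 2 that rose were Cd8a (log2 fold change 1.32, limma adjusted p = 0.0244) and Cd8b1 (1.35, 0.0256). Of the 5 tested NK cell markers 4 rose, where 0.979% of all genes tested did. The part of these cells in the values of Ifng, Tbx21 and Il12rb1 was not tested beyond the ratios that follow. Dendritic cell markers, of the cells that make IL-12, summed to 53.6 to 68.7 against 43.4 to 65.5 FPKM, a sum to which Fscn1 gave the most (24.7 to 33.3 and 24.2 to 32). Of these 10 markers 5 were higher without overlap (Batf3, Xcr1, Clec9a, Itgax and Cd209a) and 0 passed limma or limma-voom. At an unadjusted p under 0.05 there were 5, where 15.1% of all genes tested passed. Xcr1 and Clec9a, with wild-type means of 0.428 and 0.333 FPKM, passed the filter only through the deficient group. The same holds for Gzma (0.310) of the NK cell and Cd247 (0.442) of the T cell markers. These counts therefore have the limit given for Ifng and Tbx21. Xcr1, a chemokine receptor of cross-presenting dendritic cells, was at 0.809 to 1.02 FPKM in deficient and 0.323 to 0.597 in wild-type tumours.

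To describe the axis beside these cells, the log2(FPKM + 0.1) of Ifng was set against the mean of the CD3 complex genes Cd3d, Cd3e, Cd3g and Cd247 in that tumour. The difference was -1.70, -2.08 and -2.04 in the deficient tumours and -2.47, -2.91 and -4.79 in the wild-type ones. Ifng was therefore higher relative to CD3 in every deficient tumour, by 1.45 on the log2 scale between group means (exact permutation p = 0.1, the smallest possible), and by 0.75 without wild type 5. With pseudocount 1 in place of 0.1 this difference was 0.17. Against the CD8 chains Cd8a and Cd8b1 it was 0.85 and the groups overlapped (exact permutation p = 0.2). Against 4 NK cell markers (Ncr1, Klrb1c, Klrd1 and Klre1) it was 0.84 (p = 0.1, exact permutation). There the deficient tumours lay at 0.55, 0.50 and 0.65 and the wild-type ones at 0.33, 0.16 and -1.31, the last being wild type 5. Ncr1 and Klrb1c had wild-type means of 0.0173 and 0.0616 FPKM, under the pseudocount of 0.1. How far the values against NK cell markers depend on it was not tested.

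Tbx21 did not separate in this way. Relative to the CD3 genes it lay at -1.98, -2.92 and -2.74 in the deficient tumours and at -2.71, -2.54 and -3.26 in the wild-type ones on the log2 scale, so the groups overlapped. The difference was 0.29 against CD3, but -0.32 against NK cell markers and -0.31 against the CD8 chains (exact permutation p = 0.6, 0.3 and 0.4). Il12rb1, added to this description after its values were seen, differed by 0.62 relative to CD3 (exact permutation p = 0.2), by 0.01 relative to NK cell markers and by 0.03 relative to the CD8 chains, and its groups overlapped in all 3.

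**Figure D4:**
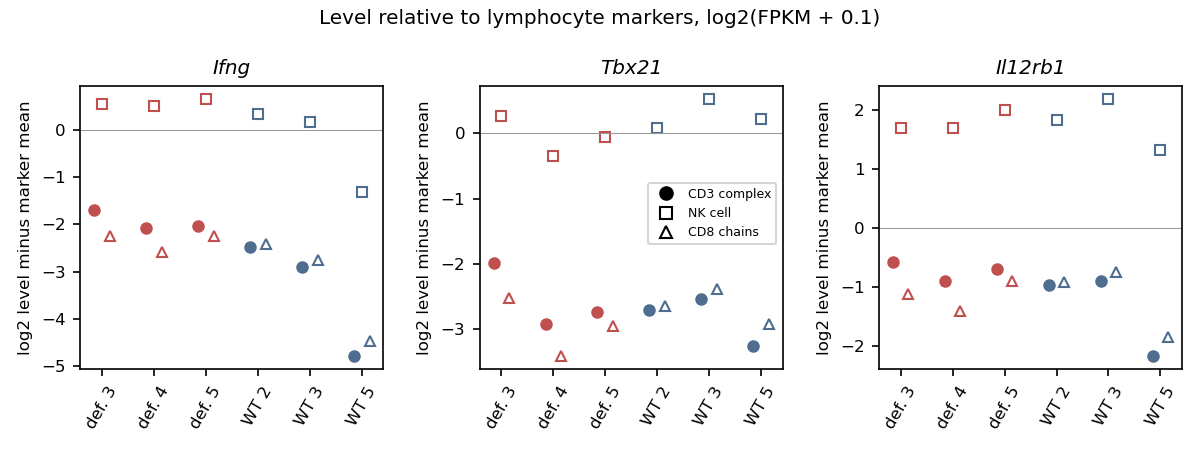
Log2(FPKM + 0.1) of Ifng, Tbx21 and Il12rb1 minus the mean of lymphocyte markers in the same tumour (vertical axis; filled circles, CD3 genes; squares, NK cell markers; triangles, CD8 chains; red, deficient; blue, wild type). Ifng lies at -1.70 to -2.08 relative to CD3 in deficient tumours and down to -4.79 in wild type 5, whereas the groups overlap for Tbx21 and Il12rb1 relative to CD3.

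Markers of other cell types also moved with the groups. Of the 11 macrophage and monocyte markers, from the lineage that carries the deletion, 10 had a higher mean in deficient tumours. Of all genes tested 11.8% were higher without overlap, 0.979% rose and 6706 of 12257 had a positive log2 fold change. Of these 11 markers 5 did not overlap and 2 rose. These were Ly6c2, a marker of inflammatory monocytes, at 14.5, 16.8 and 43.3 FPKM against 3.71, 2.41 and 2.68 (log2 fold change 2.56, SE 0.37, limma adjusted p = 0.0342), and Ccr2, the receptor by which monocytes enter tissue, at 7.87, 5.87 and 10.9 against 2.59, 1.91 and 2.9 (1.39, SE 0.21, adjusted p = 0.0344). The part of these cells in the values of the axis and of its target genes was not tested. The 8 adipocyte markers summed to 145 to 542 FPKM in deficient and 53.3 to 153 in wild-type tumours, all 8 with a higher mean. Of them 0 passed limma or limma-voom and 7 had an unadjusted p under 0.05, where 15.1% of all genes tested had. Plin1 and Retn, with wild-type means of 0.455 and 0.113 FPKM, passed the filter only through the deficient group. The 6 B cell and plasma cell markers summed to 20.8 to 113 against 7.21 to 15.4 FPKM, all 6 with a higher mean. With the adipocyte level as a covariate, the log2 fold change of Ifng was 0.75 (SE 0.29, limma adjusted p = 0.985). That of Il12rb1 was 0.77 (SE 0.32, adjusted p = 1), and 0 genes of the table were called in either direction. For Il12b the value turned from 0.13 to -0.43 (adjusted p = 1) with this covariate. Without the covariate the SE was smaller, at 0.17 for Ifng and 0.2 for Il12rb1. Of the 8 adipocyte markers 3 (Cidec, Cfd and Retn) were higher in deficient tumours without overlap, so adipocyte level and group are not separate here. The part of adipocytes in the lost calls was not tested.

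Among 158 tested genes of the pathway and marker lists, those whose profile over the 6 tumours was most like that of Ifng were Ido1, Gbp3 and Klrc1. Likeness was the mean absolute difference in log2(FPKM + 0.1), each gene centred on its own mean, and it was 0.35, 0.41 and 0.47 in this order. Ido1, an enzyme of tryptophan breakdown, measured 1.34, 0.935 and 2.16 FPKM in the deficient tumours and 0.3, 0.406 and 0.0290 in the wild-type ones. Like Ifng it was lowest in wild type 5. For Tbx21 the 3 most alike were Cd74 (0.17), Ciita (0.19) and Cxcl9 (0.20). For Il12b, a search added after its values were seen, the most alike was Ccr7 (0.15), a receptor of migrating dendritic cells, at 6.64, 6.02 and 8.90 FPKM in the deficient tumours and 3.85, 6.04 and 9.61 in the wild-type ones. Both Il12b and Ccr7 were highest in wild type 5 and lowest in wild type 2.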

How the data were processed

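RNA of 6 whole tumours (3 deficient, 3 wild type) was sequenced as paired-end reads, according to the extraction protocol. HISAT2, HTSeq and R 3.2.0 are listed, with no roles, in the submitters' processing notes; the genome build is not given in the sources used here. The deposited values were taken as FPKM from the values themselves, since no header names a unit. In 16543 of 16543 genes above 0 in at least 2 libraries they were whole multiples of 1 step per gene (tolerance 0.001). The smallest such whole numbers are the fragments given here, and 270 genes with matching exon lengths in GENCODE M21 set the absolute depth.

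Genes with a mean of at least 0.5 FPKM were fitted with limma 3.58.1 (R 4.3.3) with a variance trend on log2(FPKM + 1), with group as the 1 term and no block, and adjusted over all 12257 genes by Benjamini-Hochberg; 0.05 was the threshold and all tests were two-sided. The fit was tested on simulated data. Single values were compared by exact permutation over the 6 tumours (SciPy 1.17.1), and intervals at 95% cover counting error only. Alternatives changed the pseudocount, filter, scaling, block, covariate, library set and, after the data were seen, the model (limma-voom on recovered fragments) and the libraries behind ratios of means. All 10 genes were described, with up to 4 genes of smallest p from each surrounding list, up to 3 abundant markers or those listed at 0, and the 3 genes most like Ifng and Tbx21. The genes of the axis and all lists were chosen with earlier results of these data known. Genes outside that rule (Cxcl10, the phosphatases with Pias1, Il18, Stat4, Tyk2, Runx3, Eomes, Ifnar1, Ifnar2, Il23a, Cd4, Cd8a, Cd8b1, Il4, Il5, Il13, Il17f, Ccr7, Ptpn6, Xcr1, Ly6c2 and Ccr2 among them) were chosen after their values were seen. One gene that this rule names is not reported here.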

Additional observations from a re-analysis of the deposited data

How the results depend on the processing

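Of 137 values of the 10 genes under alternatives, 106 kept their direction and side of the threshold, 23 (all of Ifng or Il12rb1) no longer passed, 1 newly passed and 7 changed sign. Over settings other than leaving out a library, the log2 fold change of Ifng was 0.75 to 3.36 and that of Il12rb1 0.77 to 1.78. The count of genes of the axis called, 2 in the main analysis, was 1 with pseudocount 0.1, with filters of 0.1 or 1 FPKM and with median-ratio scaling. It was 0 with no filter, with upper quartile or quantile scaling, with the adipocyte covariate and with limma-voom on fragments. Leaving out 1 library gave 0 to 2, for all genes 7 to 270 higher and 3 to 66 lower, and for genes of the surrounding lists 2 to 26. With no filter 10 genes were higher and 8 lower, with the adipocyte covariate 0 and 0, and genes of the surrounding lists numbered 2 and 0. Quantile normalization gave 74 higher genes and 9 of the lists, and limma-voom 67 higher genes. Without 1 library Ifngr1 ranged over -0.36 to 0.14 and Il12b over -0.10 to 0.43. Signs changed for Ifngr1 without deficient 3 (0.05) or 4 (0.14), for Ifngr2 (-0.08) and Il12b (-0.43) with the adipocyte covariate, and for Il12b without wild type 2 (-0.10). Only the numbers 3 and 5 are in both groups, and deviations of same-numbered tumours correlated at -0.09 and -0.008. Between differently numbered tumours the correlations ran from -0.208 to 0.224, so these 2 values cannot show whether tumours were paired. A number is taken here as a name, and pairing was left untested. With the replicate block 633 genes were higher and 354 lower, 51 of the lists were called, Tbx21 passed (0.73, limma adjusted p = 0.042), and Ifngr1 (0.16) and Il12b (-0.02) changed sign. In that fit deficient 4 and wild type 2 are alone in their blocks, so the group difference comes from the tumours numbered 3 and 5 only. Few residual degrees of freedom are left in that fit, and its counts are not comparable with those of the other settings. Relative to CD3 genes Ifng ranged over 0.75 to 1.91 and Tbx21 over 0.01 to 0.47 without 1 library; pseudocount 1 gave 0.17 and -0.25, and for Tbx21 NK cell markers gave -0.32 and the CD8 chains -0.31. The causes were not tested. Depth limits Il12a (1 to 18 fragments per tumour) and Ifng in wild type (1 to 16).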

Other observations

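The ratio of Tbx21 to Eomes, 2 T-box factors of cytotoxic lymphocytes, was 1.23, 0.591 and 0.587 in the deficient tumours and 0.432, 0.509 and 0.434 in the wild-type ones, in FPKM. Every deficient tumour was thus above every wild-type tumour, with deficient 3 the highest. Tbx21 had only 45 fragments in deficient 4 and 27, 22 and 25 in the wild-type tumours. The counting error of these ratios was not computed. The ratio of Jak1 to Jak2 lay the other way, at 2.43 to 2.82 in deficient and 2.94 to 3.02 in wild-type tumours. Both ratios were picked after their values were seen and are given without a test.

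The genes most like Il12rb1 over the 6 tumours, also sought after its values were seen, were the interferon gamma targets Gbp2 (mean absolute difference 0.17 in log2), Cxcl9 (0.23) and Gbp3 (0.24). Cxcl9, a chemokine that attracts T cells, measured 238, 112 and 237 FPKM in the deficient tumours and 64.2, 77.8 and 62.6 in the wild-type ones, and deficient 4 was the lowest of its group for Cxcl9 as for Ifng, Tbx21 and Il12rb1. The 7 fibroblast markers summed to 1290 to 2110 FPKM in deficient and 1650 to 4240 in wild-type tumours, with overlap.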
